A study of Rattus norvegicus with 28 samples.

Results

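Matrix metalloproteinases and their tissue inhibitors were followed through rat lungs that were ventilated with a constant or a variable tidal volume, with or without prior injury. The genes were chosen by symbol from a list of 10, namely Mmp2, Mmp3, Mmp7, Mmp8, Mmp9, Mmp10, Mmp12, Mmp14, Timp1 and Timp3. The table of 17002 genes holds 6 of them: Mmp7 (ENSRNOG00000010507), Mmp8 (ENSRNOG00000009907), Mmp9 (ENSRNOG00000017539), Mmp12 (ENSRNOG00000030187), Timp1 (ENSRNOG00000010208) and Timp3 (ENSRNOG00000004303). Mmp2, Mmp3, Mmp10 and Mmp14 were not found under those symbols and are not analysed here. A row labelled MMP14_RAT (ENSRNOG00000010947), a protein entry name in place of a symbol, is described beside the 6 and not counted among them. Mmp7 had too few reads for the filter on low values, so 5 of the 6 were tested.

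Sprague Dawley rats gave the right upper lobe of the lung, and each library was made from its poly(A) RNA. Unventilated lungs were uninjured (control_blank, n = 3) or were taken 14 days after chronic injury was induced (control_chronic, n = 5). Volume-controlled ventilation used constant tidal volumes (VCV) or tidal volumes that varied (noisy). It was given to uninjured lungs (healthy_VCV, n = 4, and healthy_noisy, n = 3), after acute injury (acute_VCV, n = 3, and acute_noisy, n = 4) and after chronic injury (chronic_VCV, n = 3, and chronic_noisy, n = 3). The agent that caused each injury, the length of ventilation and the age of the animals are not given in the sources used here. A day after chronic injury is labelled for control_chronic alone, so its match to chronic_VCV and chronic_noisy in time is not known. No unventilated group with acute injury is analysed here.

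Matrix metalloproteinases are zinc proteases that are secreted or membrane-bound and cut collagen, elastin and other matrix proteins, cytokines and cell surface proteins. They are made as inactive proenzymes. Tissue inhibitors of metalloproteinases (TIMPs) bind the active enzymes and block them. In lung, neutrophils carry MMP8 and MMP9 in granules, macrophages make MMP12, and airway and alveolar epithelium can make MMP7. RNA levels do not measure enzyme that is stored, activated or inhibited.

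Levels are deposited read counts divided by the size factor of each library, called normalised reads below. Depth was 6024093 to 31923838 reads per library, and 3 reads were worth 1.66 to 9.53 normalised reads. Changes are differences of mean log2(level + 1) ± SE from limma, with Benjamini-Hochberg adjusted p over 14908 genes and a threshold of 0.05, and folds are on the same scale. Nothing in the labels states that libraries of a group came from separate animals, so p-values measure only the spread between these libraries. Library numbers in the titles start with 12, 14, 15 or 18, called number series, and what a series stands for is not stated. Series 12 held control_blank and acute_VCV, and series 18 held control_chronic. Healthy_noisy and chronic_VCV were all of series 15, and chronic_noisy was all of series 14. Both series 14 and 15 were present in healthy_VCV (3 and 1 libraries) and acute_noisy (2 and 2 libraries), and the acute_noisy libraries stood apart by series. No ventilated group shares a series with its unventilated control except acute_VCV, so in the other ventilation contrasts ventilation and series cannot be told apart. Each of the 8 lung epithelial markers found was detected in all 28 libraries, so the labelled tissue was matched by its markers.

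Sequence just upstream of the members is shown for those called with ventilation or injury (Mmp8, Timp1, Timp3) and for Mmp7 and Mmp12. Mmp7 was near the detection limit and left out by the filter, and Mmp12 was not called in the limma fit of all libraries. Both were called in some other fits, given below, so they are not a set of genes without change. The sequences are from RefSeq on build GRCr8, which is not the rn4 build of the deposited values. Of the 6 members 5 matched the promoter table, and Mmp9 is named only. Each run of 120 bases is 5′ to 3′ on the strand of the gene and ends at the base before the annotated start. Capitals mark TGAGTCA, the AP-1 motif, AGGAAG, a core ETS motif, or TATAAA, the TATA box.
Mmp7, chr8:13132923-13133042, plus strand: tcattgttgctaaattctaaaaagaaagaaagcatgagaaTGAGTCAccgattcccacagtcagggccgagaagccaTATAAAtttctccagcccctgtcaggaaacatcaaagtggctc
Mmp8, chr8:13008770-13008889, plus strand: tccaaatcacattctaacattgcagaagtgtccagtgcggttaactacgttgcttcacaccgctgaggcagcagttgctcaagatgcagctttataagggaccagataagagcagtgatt
Mmp12, chr8:12866532-12866651, plus strand: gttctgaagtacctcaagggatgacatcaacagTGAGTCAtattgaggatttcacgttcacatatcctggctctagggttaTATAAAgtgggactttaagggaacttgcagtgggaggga
Timp1, chrX:3771123-3771242, minus strand: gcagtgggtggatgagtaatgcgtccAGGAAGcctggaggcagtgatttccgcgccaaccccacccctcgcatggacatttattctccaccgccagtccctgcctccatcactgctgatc
Timp3, chr7:19459559-19459678, minus strand: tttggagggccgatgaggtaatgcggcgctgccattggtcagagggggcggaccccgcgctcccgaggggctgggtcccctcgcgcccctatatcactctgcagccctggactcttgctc
Mmp7 and Mmp12 each held TGAGTCA and TATAAA in these windows, at -80 and -43 bases from the start in Mmp7 and at -87 and -39 in Mmp12. Timp1 held AGGAAG at -94 and again at -230, outside the bases shown. Mmp7 also held TATAAA at -140 and CTTCCT, the reverse complement of the ETS motif, at -125. Mmp8 held CTTCCT at -246, and the Timp3 window held none of the searched letters. Motifs were searched over the 250 bases before the annotated start, TGAGTCA or TGACTCA and AGGAAG or CTTCCT on both strands and TATAAA on the sense strand. Over the same 250 bases of 33469 rat promoters, 4.05% held the AP-1 letters, 29.51% the ETS letters and 8.06% TATAAA. A match describes letters only and is not a binding site.

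Mmp8, the neutrophil collagenase that cuts fibrillar collagen, was low in unventilated lungs and high in every ventilated library. Its level was 32.4, 77.5 and 88.5 normalised reads in control_blank and 20.4, 34.3, 76.3, 80.8 and 83.3 in control_chronic. After constant ventilation of uninjured lungs it was 1816, 1840.4, 2476 and 2515, and after variable ventilation 673, 1495 and 3289.9. The ventilated groups lay wholly above the unventilated ones, with healthy_VCV the tighter of the pair. The log2 change against control_blank was 5.11 ± 0.54 (adjusted p = 3.75e-07) for constant ventilation, 34.6-fold, and 4.60 ± 0.57 (adjusted p = 1.65e-05) for variable ventilation, 24.2-fold. In injured lungs the Mmp8 level was 1352, 2094 and 3904 normalised reads in acute_VCV and 1985, 3509, 4209 and 5616 in acute_noisy. It was 454, 1168 and 1349 in chronic_VCV and 1656, 2022 and 3490.5 in chronic_noisy. The lowest ventilated library was thus a chronic_VCV one, and it still exceeded all unventilated libraries. Against control_blank the log2 change of Mmp8 was 5.17 ± 0.57 (adjusted p = 1.7e-06) in acute_VCV, where both groups are of series 12, and 5.86 ± 0.54 (adjusted p = 9.48e-08) in acute_noisy. Against control_chronic it was 4.09 ± 0.51 (adjusted p = 4.05e-05) in chronic_VCV and 5.43 ± 0.51 (adjusted p = 4.58e-07) in chronic_noisy.

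Mmp9, the gelatinase that cuts denatured and basement membrane collagen, followed Mmp8. Its level was 69.7, 72.7 and 111 normalised reads in control_blank and 11.8, 43.3, 63.5, 77.3 and 109 in control_chronic. Uninjured lungs had 481, 711, 727 and 836 after constant and 551, 681 and 1593 after variable ventilation. No ventilated library overlapped an unventilated one. The log2 change of Mmp9 was 3.02 ± 0.58 (adjusted p = 0.00015) with constant and 3.34 ± 0.62 (adjusted p = 0.000528) with variable ventilation of uninjured lungs. Acutely injured lungs had 819.6, 1105 and 2445 normalised reads in acute_VCV and 1022, 1401, 2829.7 and 4365 in acute_noisy. Chronically injured lungs had 272, 477 and 706 in chronic_VCV and 454, 509 and 1155 in chronic_noisy. Against control_blank the log2 change of Mmp9 was 3.97 ± 0.62 (adjusted p = 4.7e-05) in acute_VCV and 4.62 ± 0.58 (adjusted p = 1.6e-06) in acute_noisy. Against control_chronic it was 3.17 ± 0.56 (adjusted p = 0.000761) in chronic_VCV and 3.69 ± 0.56 (adjusted p = 8.65e-05) in chronic_noisy. Over the 28 libraries the log2 levels of Mmp8 and Mmp9 had a Pearson r of 0.954, a description of libraries that share groups, depth and number series.

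**Figure D1:**
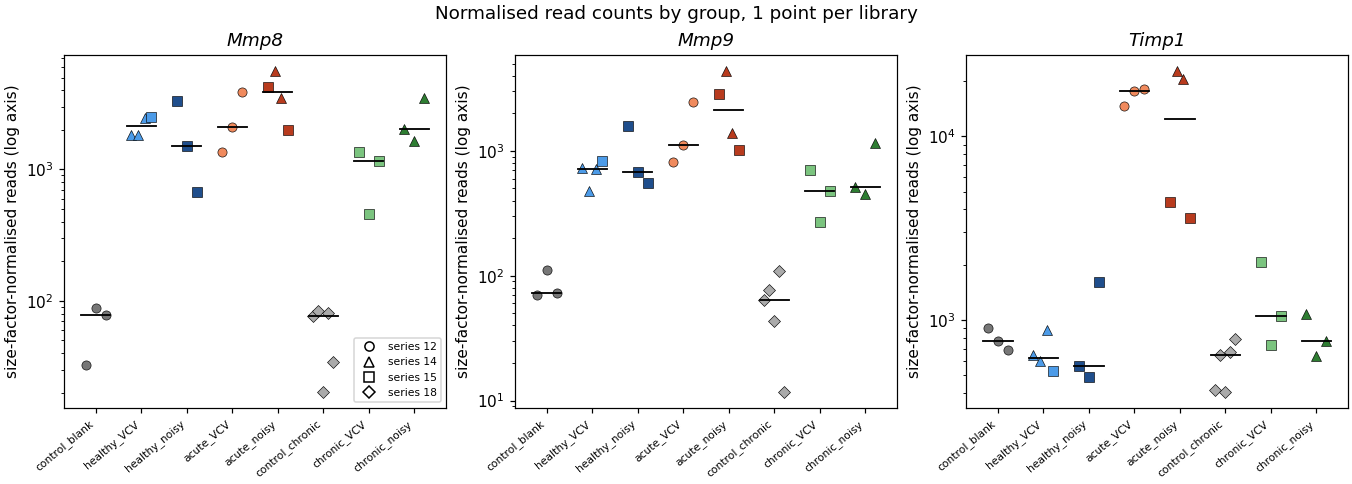
Levels of Mmp8, Mmp9 and Timp1 in each of the 28 libraries by group, as normalised reads on a log axis, with the number series of each library marked by shape and the group median by a bar. Mmp8 and Mmp9 are high in all ventilated groups, from 454 and 272 normalised reads upward, while Timp1 reaches 3605 or more in the acutely injured groups alone and is split by series in acute_noisy.

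Neutrophil marker genes moved with Mmp8 and Mmp9, and their part in the change was not tested. The list shares no gene with the 6 members. Of 13 markers 11 were found and tested, and in uninjured lungs 10 of them rose with constant and 10 with variable ventilation, none of the others being called lower. Of all genes 57.4% and 32.1% were called in these contrasts. In acute_VCV and acute_noisy against control_blank 10 and 10 rose, and in chronic_VCV and chronic_noisy against control_chronic 9 and 10 rose. The shares of all genes called were 37.3%, 59.8%, 14.8% and 37.2%, in the same order. The median log2 change of the neutrophil markers was 3.19 with constant ventilation of uninjured lungs, against -0.03 over all genes tested. Without ventilation their summed level was 2895 to 3391 normalised reads (control_blank) and 1118 to 2873 (control_chronic). With ventilation the sum was 19685 to 33847 for healthy_VCV, 25423 to 33227 for healthy_noisy, 10148 to 25698 for chronic_VCV and 17607 to 31980.5 for chronic_noisy. Acutely injured lungs had the widest sums, 29817 to 115938 for acute_VCV and 23255 to 91974 for acute_noisy. Fpr1, a receptor for bacterial formyl peptides, was at 0 in 4 libraries, the granule protease gene Elane in 3, the peroxidase gene Mpo in 2 and Prok2 in 1. In whole lung a larger number of cells of a type and more RNA per cell cannot be told apart. By Pearson r of log2 levels over the 28 libraries, the genes most like Mmp8 were Il8rb (r = 0.978), the neutrophil chemokine receptor also known as Cxcr2, Ifit1lb (r = 0.974) and Retnlg (r = 0.974). Those most like Mmp9 were Clec4e (r = 0.97), S100a8 (r = 0.965), which encodes a neutrophil calcium-binding protein, and Il1b (r = 0.962).

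Among the 5 tested members, 3 changed with constant ventilation of uninjured lungs (Mmp8, Mmp9 and Timp3, each higher), where 57.4% of all genes were called. That share is close to the background, so the count by itself says little of the family. Variable ventilation of uninjured lungs changed the same 3 members, each higher, against 32.1% of all genes. Acute injury with ventilation against control_blank changed 4 members under constant volumes, where 37.3% of all genes were called, and 4 under variable volumes, where 59.8% were called. In both cases they were Mmp8, Mmp9, Timp1 and Timp3, each higher. With chronic injury, constant ventilation changed 2 members (Mmp8 and Mmp9, against 14.8% of all genes) and variable ventilation changed 3 (Mmp8, Mmp9 and Timp3, against 37.2%). The contrasts of a ventilated group with control_blank share those 3 control libraries. Those with control_chronic share its 5 libraries.

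Chronic injury without ventilation left the members without a call. Control_chronic was of series 18 and control_blank of series 12, so chronic injury and series cannot be told apart in this contrast. Against control_blank limma called 0 of 5 members in control_chronic, where 14.9% of all genes were called, with 1 at an unadjusted p under 0.05 and 0 called by edgeR. Log2 changes were -0.23 ± 0.51 (adjusted p = 0.789) for Mmp8, -0.74 ± 0.56 (adjusted p = 0.378) for Mmp9, -0.33 ± 0.62 (adjusted p = 0.747) for Mmp12 and -0.47 ± 0.48 (adjusted p = 0.536) for Timp1. Timp3 was at 0.59 ± 0.23 (adjusted p = 0.0817), and without control_blank library 074 it was called at 0.83 (limma adjusted p = 0.0198). The depth of this group was the lowest, 6024093 to 17162741 reads per library.

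Mmp12, the macrophage elastase, was detected in all 28 libraries at low levels and was not called in any comparison of the limma fit of all libraries. Its level was 61.5, 63.6 and 77.8 normalised reads in control_blank, 28.4, 31.9, 35.6 and 44.7 in healthy_VCV and 5.23, 29.7 and 45.8 in healthy_noisy. In acutely injured lungs it was 36.4, 96.1 and 283 in acute_VCV and 33.0, 34.3, 86.9 and 102 in acute_noisy. In chronically injured lungs it was 28.6, 35.7, 65.6, 68.5 and 93.2 in control_chronic, 26.6, 48.7 and 56.6 in chronic_VCV and 35.9, 97.5 and 164 in chronic_noisy. The highest library, from acute_VCV, stood 283 against 36.4 for the lowest of its group. All healthy_VCV and healthy_noisy libraries lay below all control_blank libraries. The log2 change was -0.94 ± 0.65 (adjusted p = 0.219) with constant and -1.72 ± 0.69 (adjusted p = 0.0588) with variable ventilation of uninjured lungs. In a fit of only the groups compared the former was called at -0.94 (limma adjusted p = 0.00992). With quantile normalization the latter was called at -1.76 (limma adjusted p = 0.0453), and without healthy_noisy library 061 at -2.31 (limma adjusted p = 0.0234). Acute injury under constant ventilation moved Mmp12 by 1.5 ± 0.65 (adjusted p = 0.0541) against healthy_VCV. EdgeR on recovered reads called that difference at 1.98 (adjusted p = 0.00706), and limma without acute_VCV library 045 called it at 2.22 (adjusted p = 0.0102). Limma also called it with a pseudocount of 10 (adjusted p = 0.0358) and with quantile normalization (adjusted p = 0.0187). A fit of only the groups compared called it too (limma adjusted p = 0.0478). The 8 macrophage markers tested had 3 higher and 1 lower of 8 in that contrast, against 52.5% of all genes, and the 3 higher fell to 1 without acute_VCV library 045. The genes most like Mmp12 were Acad9 (r = 0.702), Nhp2l1 (r = 0.668) and Rars2 (r = 0.662), weaker than for any other tested member.

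Mmp7, the epithelial matrilysin, was near the limit of detection. Its level was 0, 0 and 2.77 normalised reads in control_blank, 0, 0, 0, 0 and 3.97 in control_chronic, 0, 0, 0.790 and 0.830 in healthy_VCV and 0, 0 and 0 in healthy_noisy. It was 5.74, 8.50 and 16.7 in acute_VCV, from 9 to 30 reads a library. In acute_noisy the level was 7.45 and 31.2 in series 14 and 0 and 0 in series 15. It was 0, 0 and 3.04 in chronic_VCV and 1.8, 5.57 and 23.5 in chronic_noisy. Acute_VCV and chronic_noisy were thus the only groups with Mmp7 reads in every library, down to 2 reads in chronic_noisy. Detection at so few reads depends on depth. Depth per library was 28800053 to 31923838 reads in acute_VCV, 22277745 to 30960809 in control_blank and 18287629 to 21606891 in chronic_noisy. It was 13002088 to 16255716 in healthy_noisy and 6024093 to 17162741 in control_chronic. Without the filter, limma called acute injury under constant ventilation at 2.95 (adjusted p = 0.0134), and edgeR called it at an adjusted p of 0.0154. Acute injury under variable ventilation was called by edgeR alone (adjusted p = 0.0374), with 2.02 by limma without the filter (adjusted p = 0.123). Acute_VCV against control_blank had 2.74 by limma without the filter (adjusted p = 0.0413), and edgeR gave an adjusted p of 0.0769. Chronic_noisy against control_chronic had 2.48 (limma adjusted p = 0.0399), and edgeR gave 0.0572. In healthy_noisy no read was seen, which allows up to 3 reads a library by counting error alone.

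The row labelled MMP14_RAT carries the protein entry name of the membrane-type metalloproteinase that activates proMMP2. It was higher after constant ventilation of uninjured lungs than in control_blank, which is of another series. Its level was 642, 788 and 1034 normalised reads in control_blank and 1752, 1866, 2071 and 2072 in healthy_VCV. These groups did not overlap, and the log2 change was 1.26 ± 0.26 (adjusted p = 0.000235). In healthy_noisy the level was 874, 958 and 1825, with a log2 change of 0.52 ± 0.27 (adjusted p = 0.149). In acute_VCV it was 1079.9, 1171 and 1389.5, above all control_blank and below all healthy_VCV libraries. Against control_blank the log2 change was 0.58 ± 0.27 and not called (adjusted p = 0.0948). Against healthy_VCV it was called at -0.68 ± 0.26 (adjusted p = 0.0282). Leaving out acute_VCV library 040 or 049, or healthy_VCV library 060 or 062, ended that call, with values from -0.66 to -0.60. In acute_noisy the level was 1167, 1870.8, 2151 and 2329, and against control_blank the log2 change was 1.17 ± 0.26 (adjusted p = 0.000458). Unventilated control_chronic, at 1077.16 to 1443.62, also lay above all control_blank libraries, with a log2 change of 0.58 ± 0.24 (adjusted p = 0.105). Ventilation was not called in chronically injured lungs. The log2 change against control_chronic was 0.42 ± 0.24 (adjusted p = 0.258) in chronic_VCV and 0.48 ± 0.24 (adjusted p = 0.126) in chronic_noisy. The chronic_noisy libraries lay above all control_chronic ones, and chronic_VCV overlapped them.

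Timp1, the secreted inhibitor that binds most soluble metalloproteinases including MMP9, rose with acute injury and did not pass the test for ventilation of uninjured lungs. Its level was 688, 768 and 901 normalised reads in control_blank and 408, 416, 642, 671 and 789 in control_chronic. Ventilated uninjured lungs had 531, 601, 648 and 888 in healthy_VCV and 492, 566 and 1621 in healthy_noisy. All but the highest healthy_noisy library, 078, lay within the range of the unventilated libraries. The log2 change against control_blank was -0.25 ± 0.51 (adjusted p = 0.683) with constant and -0.03 ± 0.54 (adjusted p = 0.977) with variable ventilation. In acute_VCV the Timp1 level was 14656, 17751 and 18100.1 normalised reads, a mean of 16836 ± 1896 (SD, n = 3). In acute_noisy it was 20495 and 22690.4 in series 14 and 3605 and 4386 in series 15. All 7 acutely injured libraries lay above every other library. The log2 change of Timp1 against control_blank was 4.42 ± 0.54 (adjusted p = 4.28e-06) in acute_VCV, 21.4-fold and within series 12, and 3.57 ± 0.51 (adjusted p = 5.89e-06) in acute_noisy, 11.8-fold.

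Acute injury was also read among ventilated lungs. Under constant ventilation, acute_VCV against healthy_VCV, 2 of 5 members changed, Timp1 higher and Timp3 lower, where 52.5% of all genes were called. The log2 change of Timp1 was 4.68 ± 0.51 (adjusted p = 1.62e-07), 25.6-fold. Acute_VCV is of series 12 and healthy_VCV of series 14 and 15, so injury and series cannot be told apart in this contrast. Mmp8 was at 0.06 ± 0.54 (adjusted p = 0.935), with overlapping groups, and Mmp9 at 0.95 ± 0.58 (adjusted p = 0.178). Under variable ventilation, acute_noisy against healthy_noisy, 1 of 5 members changed, Timp1, where 26.7% of all genes were called. The log2 change of Timp1 was 3.59 ± 0.51 (adjusted p = 0.000158), and within series 15 it was 2.37 (limma adjusted p = 0.00688). In a fit of only these groups Timp1 was not called (limma adjusted p = 0.107). Mmp8 was at 1.26 ± 0.54 (adjusted p = 0.0798), Mmp9 at 1.28 ± 0.58 (adjusted p = 0.101) and Timp3 at 0.08 ± 0.24 (adjusted p = 0.82). Without acute_noisy library 053 the count rose to 4, with Mmp8 at 1.55 (limma adjusted p = 0.0305), Mmp9 at 1.62 (adjusted p = 0.0356) and Mmp12 at 1.72 (adjusted p = 0.0483). Without healthy_noisy library 029 it was 2, with Mmp8 at 1.84 (limma adjusted p = 0.0335).

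Within acute_noisy the libraries of series 14 and 15 differed in Timp1. Series 14 exceeded series 15 by 2.44 ± 0.44 on the log2 scale, 5.42-fold (limma adjusted p = 0.00123), and of the 5 tested members only Timp1 was called, against 22.9% of all genes. Mmp8 differed by 0.62 ± 0.70 (adjusted p = 0.545), Mmp9 by 0.54 ± 0.77 (adjusted p = 0.636) and Timp3 by -0.24 ± 0.32 (adjusted p = 0.602). This comparison was added after the values were seen. Against control_blank, Timp1 was at 4.79 with series 14 alone (limma adjusted p = 1.35e-08) and at 2.35 with series 15 alone (adjusted p = 0.00024). The summed levels of each of the 8 marker lists lay apart between the series, 2 libraries against 2, a split that so few libraries can show by chance. Of single markers limma called 0 of 11 for neutrophils and 0 of 4 for smooth muscle, against 22.9% of all genes. Higher in series 14 it called 1 of 6 for endothelium, 2 of 10 for fibroblasts, 2 of 8 for macrophages and 5 of 6 for cardiac muscle. Ciliated cells had 2 lower of 5 and lung epithelium 1 higher and 4 lower of 8. Higher in series 14 were the fibroblast sum, 120850.2 to 140489.8 against 60965 to 72031, the endothelial sum, 54559 to 67269 against 41919.8 to 44597, the neutrophil sum, 69307 to 91974 against 23255 to 63356, and the macrophage sum, 22012 to 23695 against 11738 to 20275. Lower in series 14 were the ciliated cell sum, 608 to 819 against 1275 to 1534, and the smooth muscle sum, 15433 to 15983 against 16319.8 to 22449. Summed levels of the 8 lung epithelial markers were 372287 to 402763 in series 14 and 709684 to 740178 in series 15, and those of the 6 cardiac muscle markers 2378 to 8337 and 231 to 418. Their part in the Timp1 difference was not tested.

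Acute injury was set against chronic injury at the same ventilation in comparisons added after the values were seen. Acute_VCV was of series 12 and chronic_VCV of series 15, so kind of injury and series cannot be told apart under constant ventilation. Acute_noisy held series 14 and 15, and chronic_noisy series 14 alone. Under constant ventilation 1 of 5 members changed, Timp1, where 30.7% of all genes were called. Its log2 change, acute_VCV minus chronic_VCV, was 3.84 ± 0.54 (adjusted p = 2.72e-05). Chronic_VCV had 730.2, 1055 and 2065 normalised reads of Timp1, all below acute_VCV. Without chronic_VCV library 067, which has the highest Timp1 of its group, Mmp9 was called too, at 1.85 (limma adjusted p = 0.0452). EdgeR also called Mmp9, at 1.61 (adjusted p = 0.0336). Under variable ventilation 2 of 5 changed, against 19.7% of all genes. Timp1 was at 3.51 ± 0.51 (adjusted p = 8.31e-05), with chronic_noisy at 636, 771 and 1085 normalised reads, below all acute_noisy libraries. Mmp9 was at 1.67 ± 0.58 (adjusted p = 0.0454), with overlapping groups, and the call was lost without acute_noisy library 046, 047 or 050 or chronic_noisy library 075 or 079, at 1.31 to 1.85. Mmp8 was at 0.66 ± 0.54 (adjusted p = 0.415).

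No member passed the test for chronic injury among ventilated lungs. Chronic_noisy was of series 14 and healthy_noisy of series 15, so chronic injury and series cannot be told apart under variable ventilation. Chronic_VCV was of series 15 and healthy_VCV mostly of series 14. Under constant ventilation (chronic_VCV minus healthy_VCV) limma called 0 of 5, with 1 at an unadjusted p under 0.05 and 0 by edgeR, and 2.46% of all genes were called. Under variable ventilation (chronic_noisy minus healthy_noisy) limma called 0 of 5, with 2 at an unadjusted p under 0.05 and 0 by edgeR, and 4.69% of all genes were called. Timp1 was at 0.83 ± 0.51 (adjusted p = 0.29) and 0.08 ± 0.54 (adjusted p = 0.935) in the 2 contrasts. Mmp8 was at -1.25 ± 0.54 (adjusted p = 0.141) and 0.61 ± 0.57 (adjusted p = 0.487). Chronically injured lungs after ventilation also gave Timp1 at 1.04 ± 0.48 (adjusted p = 0.146) with constant and 0.52 ± 0.48 (adjusted p = 0.411) with variable volumes against control_chronic. The genes whose log2 levels were most like Timp1 over the 28 libraries were Nolc1 (r = 0.973), Ptx3 (r = 0.967), which encodes a secreted pentraxin of the acute phase, and Pwp2 (r = 0.967).

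Timp3, the inhibitor that is held in the matrix and also blocks ADAM17, was higher after either mode of ventilation in uninjured lungs than in control_blank, which is of another series. Its level was 3929.7, 3999 and 6519 normalised reads in control_blank and 5141, 6081, 7956, 7966 and 8827 in control_chronic. In uninjured lungs it was 12199, 13476, 13617 and 16946 after constant ventilation and 6686, 9785 and 11512 after variable ventilation. The constant group lay above all control_blank, control_chronic and healthy_noisy libraries, and the lowest healthy_noisy library was just above the highest control_blank one. The log2 change of Timp3 was 1.58 ± 0.24 (adjusted p = 1.4e-05) with constant and 0.96 ± 0.26 (adjusted p = 0.00774) with variable ventilation. Without healthy_noisy library 029 the latter was 0.79 and not called (limma adjusted p = 0.0551). In acutely injured lungs the Timp3 level was 7222, 7295 and 9725 in acute_VCV and 7831, 8212, 10006 and 13376 in acute_noisy. Acute_VCV lay above control_blank and below healthy_VCV. Against control_blank the log2 change was 0.77 ± 0.26 (adjusted p = 0.0218) in acute_VCV and 1.04 ± 0.24 (adjusted p = 0.000847) in acute_noisy. The former was not called with quantile normalization (0.55, limma adjusted p = 0.115), nor without control_blank library 016 (0.65) or 021 (0.66) or acute_VCV library 049 (0.63). Against healthy_VCV the log2 change of Timp3 in acute_VCV was -0.80 ± 0.24 (adjusted p = 0.00768).

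In chronically injured lungs Timp3 was at 6922, 12100.2 and 12921 normalised reads in chronic_VCV and 12735, 13040.2 and 15786 in chronic_noisy. The chronic_noisy libraries lay above all control_chronic libraries, and 1 chronic_VCV library, 067, lay among them. The log2 change against control_chronic was 0.54 ± 0.23 (adjusted p = 0.115) with constant and 0.97 ± 0.23 (adjusted p = 0.00306) with variable ventilation. Without chronic_VCV library 067 the former was called at 0.83 (limma adjusted p = 0.0268). Endothelial and fibroblast markers were set beside Timp3, and their part in its changes was not tested. With constant ventilation of uninjured lungs some of both lists were called. The 6 endothelial markers tested had 4 higher and 1 lower of 6, and the 10 fibroblast markers had 4 called, each higher, or 2 without control_blank library 021. Of all genes 57.4% were called in this contrast, a larger share than of the fibroblast markers. Summed endothelial levels were 30263 to 44240.0 normalised reads in control_blank and 57044 to 63408 in healthy_VCV, and summed fibroblast levels were 57220.0 to 83649 and 113761 to 158677. None of these markers was at 0 in any library. With variable ventilation of uninjured lungs, where Timp3 was also called higher, 1 of 6 endothelial markers was higher (0 without control_blank 016 or healthy_noisy 029, 2 without control_blank 074) and 2 of 10 fibroblast markers were (1 without control_blank 016 or healthy_noisy 029 or 078), with a fibroblast median of -0.03. In the full fit both shares were below the 32.1% of all genes called. In acute_VCV against healthy_VCV, where Timp3 was lower, endothelial markers had 1 higher and 3 lower of 6 called and fibroblast markers 0 higher and 4 lower of 10. Of all genes 52.5% were called there, a larger share than of the fibroblast markers. With constant ventilation of uninjured lungs the other marker lists had 5 higher and 0 lower of 8 called for macrophages (2 higher without healthy_VCV library 062, 3 without control_blank library 021 or 074), 0 higher and 6 lower of 8 for lung epithelium (3 lower with quantile normalization), 0 higher and 3 lower of 4 for smooth muscle, 0 higher and 3 lower of 6 for cardiac muscle (1 lower without control_blank 021 or 074 or healthy_VCV 062) and 0 higher and 4 lower of 5 for ciliated cells. Genes most like Timp3 were Acox3 (r = 0.917), Ptprf (r = 0.914) and Ogdh (r = 0.906).

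**Figure D2:**
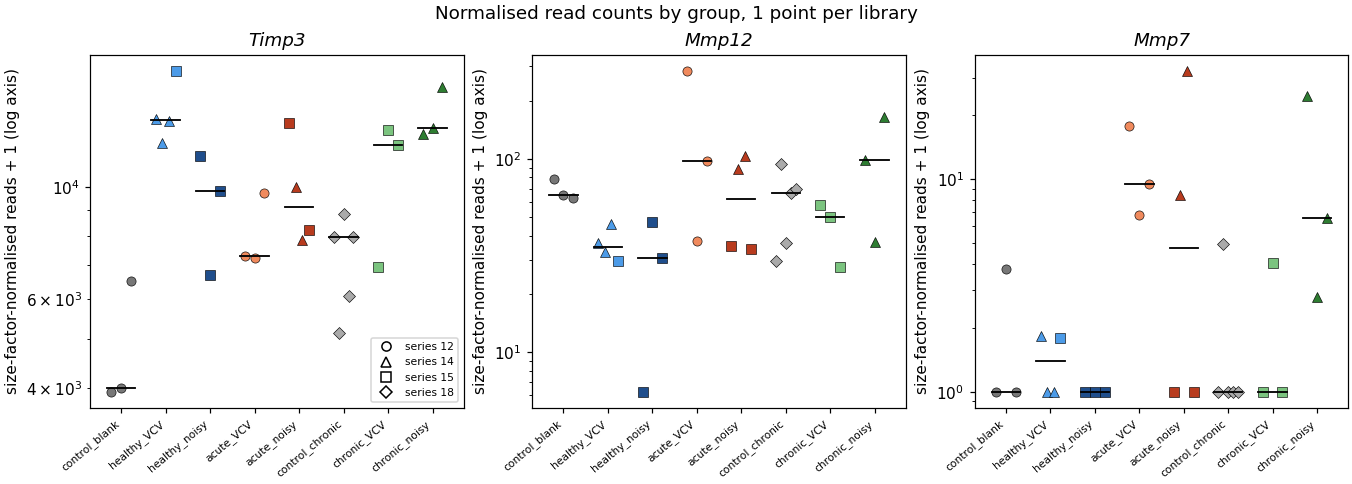
Levels of Timp3, Mmp12 and Mmp7 in each of the 28 libraries by group, as normalised reads + 1 on a log axis, with the number series marked by shape and the group median by a bar. Timp3 is lowest in control_blank and highest in healthy_VCV and chronic_noisy, Mmp12 in both ventilated uninjured groups lies below control_blank, and Mmp7 is at or near 0 reads (1 on the axis) in most libraries.

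Constant and variable ventilation were compared directly, the question named in the title and design of the series. Acute_VCV was of number series 12 and acute_noisy of 14 and 15, and chronic_VCV was of 15 and chronic_noisy of 14. In both injured arms mode and number series therefore cannot be told apart. In the uninjured arm healthy_noisy was of series 15 and healthy_VCV mostly of series 14. In uninjured lungs limma called 0 of 5 members, with 1 at an unadjusted p under 0.05 and 0 by edgeR, against 10.3% of all genes. After acute injury it called 0, with 0 at an unadjusted p under 0.05 and 0 by edgeR, against 24.2%. After chronic injury it called 0, with 1 at an unadjusted p under 0.05 and 0 by edgeR, against 2.43%. For the mean over the 3 arms it called 0, with 0 at an unadjusted p under 0.05 and 0 by edgeR, against 0.0671%. Log2 changes, variable minus constant over the 3 arms, were 0.50 ± 0.32 (adjusted p = 0.536) for Mmp8, 0.50 ± 0.34 (adjusted p = 0.575) for Mmp9, -0.38 ± 0.30 (adjusted p = 0.616) for Timp1 and 0.03 ± 0.14 (adjusted p = 0.957) for Timp3. After acute injury Timp1 was at -0.86 ± 0.51 (adjusted p = 0.218), and with acute_noisy libraries of series 15 alone it was called at -2.08 (limma adjusted p = 0.00275). In uninjured lungs Timp3 was at -0.62 ± 0.24 (adjusted p = 0.0867), and a fit of only those groups called it at -0.62 (limma adjusted p = 0.0384).

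The effect of mode differed between arms for Timp3. The difference of the log2 mode effects, acute minus uninjured, called 1 of 5 members, Timp3 at 0.88 ± 0.34 (adjusted p = 0.0436), where 39% of all genes were called. MMP14_RAT was called in the same test, at 1.34 ± 0.36 (adjusted p = 0.00591). The Timp3 call was lost with series 14 alone (0.76), with series 15 alone (1.01), and in 8 of 14 fits that left out 1 library, namely acute_VCV 040 or 045, healthy_VCV 025, 060 or 062, acute_noisy 046 or 047, or healthy_noisy 061, at 0.66 to 0.90. For Timp1 that difference was -1.08 ± 0.72 (adjusted p = 0.235), and with series 15 alone it was called at -2.30 (limma adjusted p = 0.00546). Chronic minus uninjured called 1 of 5, Timp3 at 1.04 ± 0.35 (adjusted p = 0.0299), where 29.7% of all genes were called. With the number series as a covariate it was 1.57 and not called (limma adjusted p = 0.238), and the call was also lost without chronic_noisy 084, healthy_noisy 061, healthy_VCV 062 or chronic_VCV 067, at 0.76 to 0.95. Without healthy_noisy 029 Mmp8 was called too, at 2.43 (limma adjusted p = 0.0282). The response to constant ventilation also differed between chronic and uninjured lungs, with 1 of 5 members called, against 23.9% of all genes. This was Timp3 at -1.04 ± 0.34 (adjusted p = 0.0294), lost without control_blank 016 or 021, healthy_VCV 062 or chronic_VCV 067, at -0.94 to -0.75. The response to variable ventilation gave limma calls for 0 of 5, edgeR calls for 0 and 1 unadjusted p under 0.05, against 2.66% of all genes, and Timp3 was at 0.01 ± 0.35 (adjusted p = 0.996). Number series differ between the groups of these contrasts and cannot be told apart from mode and injury.

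**Figure D3:**
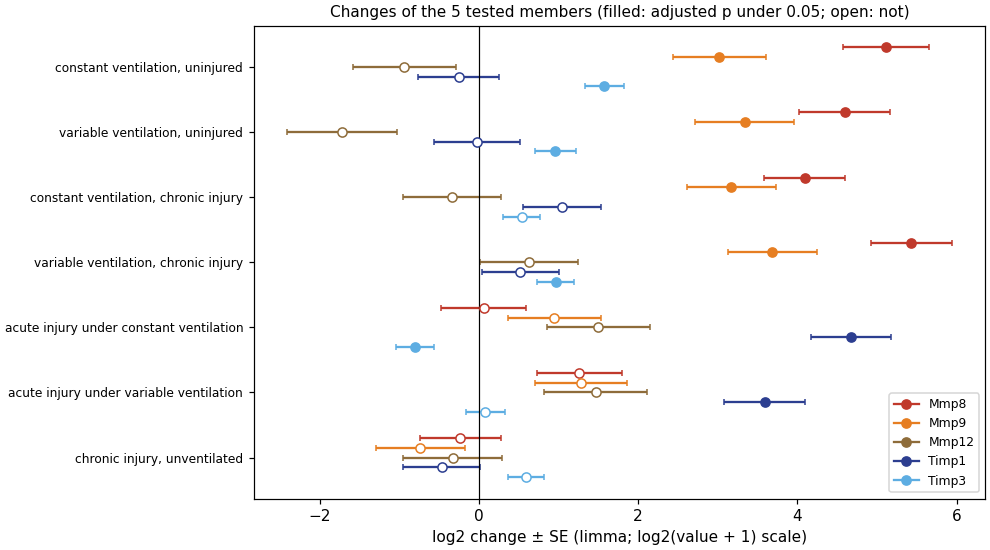
Log2 changes ± SE from limma for the 5 tested members in 7 comparisons, filled where the adjusted p was under 0.05. Mmp8 and Mmp9 lie to the right in the 4 ventilation comparisons, and Timp1 lies to the right in both acute injury comparisons, at 4.68 ± 0.51 and 3.59 ± 0.51.

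Reads of Mmp8 per read of Timp1 were compared between groups, as a ratio of normalised reads that is not per length and says nothing of which gene is more abundant. The ratio was 0.0360 to 0.115 (median 0.113) in control_blank and 0.0434 to 0.183 (median 0.120) in control_chronic. Ventilation of uninjured lungs gave 2.79 to 4.74 (median 2.93) in healthy_VCV and 0.415 to 5.82 (median 3.04) in healthy_noisy. The healthy_VCV and healthy_noisy libraries were all above the unventilated range, with healthy_noisy library 078 the low one of its group. In acutely injured lungs the ratio was 0.0923 to 0.216 (median 0.118) in acute_VCV and 0.171 to 0.960 (median 0.399) in acute_noisy. Acute_VCV, where both genes were high, overlapped the unventilated groups. The lowest acute_noisy library, 050 at 0.171, lay within the control_chronic range and above all control_blank libraries. In chronically injured lungs it was 0.622 to 1.11 (median 0.653) in chronic_VCV and 1.86 to 4.52 (median 2.61) in chronic_noisy, and these groups did not overlap. For Mmp9 per Timp1 the ratio was 0.0773 to 0.144 (median 0.106) in control_blank, 0.80 to 1.58 (median 0.962) in healthy_VCV and 0.0559 to 0.135 (median 0.0623) in acute_VCV. The ratio of Timp3 to Timp1 was 4.36 to 9.48 (median 5.21) in control_blank, 15.2 to 31.9 (median 20.7) in healthy_VCV and 0.407 to 0.537 (median 0.498) in acute_VCV, the lowest ratios lying in the acutely injured groups. These ratios are descriptions and were not tested.

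**Figure D4:**
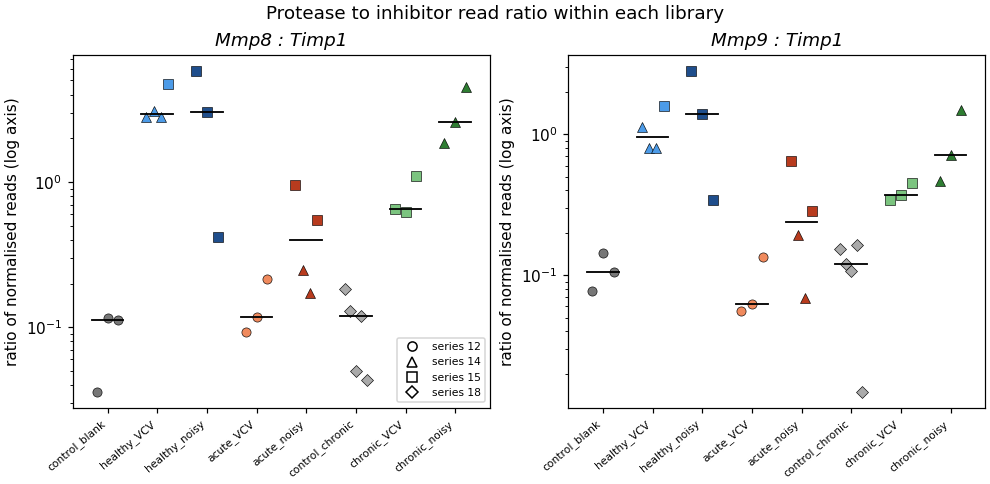
Ratios of normalised reads, Mmp8 or Mmp9 to Timp1, in each library by group on a log axis, with the number series marked by shape and the group median by a bar. The ratio of Mmp8 to Timp1 lies above the unventilated groups in ventilated uninjured and ventilated chronically injured lungs, lower in chronic_VCV than in chronic_noisy, and overlaps them in acute_VCV. The lowest acute_noisy library lies within the control_chronic range.

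The other metalloproteinases were given by a list of 17, of which 9 were found and 8 tested. With constant ventilation of uninjured lungs 2 higher and 2 lower of 8 were called, against 57.4% of all genes, beside a median log2 change of -0.22 for the list and -0.03 over all genes. MMP23_RAT was at -1.5 ± 0.29 and Mmp11, a furin-activated stromal enzyme, at -0.99 ± 0.34, and Mmp19 rose by 0.84 ± 0.30 and Mmp28 by 0.75 ± 0.31. The 2 higher fell to 0 or 1 in 6 of 7 fits that left out a library, the exception being the fit without control_blank 074, and the 2 lower to 1 without control_blank 016. In acute_VCV against control_blank 1 higher and 5 lower of 8 were called, against 37.3% of all genes, with Mmp11 at -2.03 ± 0.36, Mmp17 at -1.14 ± 0.29, MMP16_RAT at -1.02 ± 0.28 and Mmp19 at 1.32 ± 0.32. The 5 lower became 3 without control_blank 016 or acute_VCV 045 or 049. Mmp11 levels were 498 to 632 normalised reads in control_blank and 93.1 to 202 in acute_VCV, with no overlap. In acute_VCV against healthy_VCV 4 of 8 were called, against 52.5% of all genes, each lower: Mmp28 at -1.24 ± 0.31, MMP16_RAT at -1.19 ± 0.26, Mmp11 at -1.04 ± 0.34 and Mmp17 at -1.0 ± 0.27.

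The other inhibitors were Timp2, listed as TIMP2_RAT, Timp4, the membrane-anchored Reck, the broad protease trap A2m and Tfpi2, a Kunitz-type serine protease inhibitor. In acute_VCV against control_blank 2 higher and 1 lower of 5 were called, against 37.3% of all genes. Tfpi2 rose by 5.98 ± 1.11 and A2m by 2.98 ± 0.92, while Timp4 was at -2.35 ± 0.59. Tfpi2 levels were 0.810 to 15.2 normalised reads in control_blank and 287 to 592 in acute_VCV. A2m levels were 15.5 to 158 and 204 to 457, and Timp4 levels 66.9 to 167 and 13.1 to 25.6, in the same order. The 2 higher became 1 without control_blank 021 or 074 or acute_VCV 045, and the 1 lower became 2 without control_blank 016 or acute_VCV 040. Against healthy_VCV 2 higher and 2 lower of 5 were called, against 52.5% of all genes, with Tfpi2 at 4.82 ± 1.04, A2m at 2.69 ± 0.86, Timp4 at -1.47 ± 0.55 and Reck at -1.44 ± 0.23. The 2 higher became 1 without acute_VCV 045, and the 2 lower became 1 without acute_VCV 045 or 049 or healthy_VCV 025 or 057. With constant ventilation of uninjured lungs only Reck of the 5 was called, at 1.07 ± 0.23, against 57.4% of all genes.

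Of the genes that activate, bind or clear metalloproteinases 13 were tested. In acute_VCV against control_blank, a contrast of injury and ventilation together, 10 higher and 1 lower of 13 were called, where 37.3% of all genes were called, with a list median of 0.96 beside 0.07 over all genes, and the 1 lower became 2 without control_blank 016. Lcn2, whose protein binds MMP9, rose by 6.64 ± 1.39, Elane by 4.54 ± 0.60, Plaur, the urokinase receptor, by 3.51 ± 0.47 and Plat, the tissue plasminogen activator gene, by 2.47 ± 0.34. Lcn2 levels were 86.3 to 502 normalised reads in control_blank and 7076 to 31323 in acute_VCV, with no overlap. Against healthy_VCV 6 higher and 1 lower of 13 were called, a share near the 52.5% of all genes, led by Lcn2 at 3.73 ± 1.30, Plau, the urokinase gene, at 1.97 ± 0.30, the membrane protease St14 at 1.42 ± 0.17 and Plaur at 1.31 ± 0.44, and the 6 higher became 3 without acute_VCV 049. With constant ventilation of uninjured lungs 6 higher and 4 lower of 13 were called, against 57.4% of all genes, with Elane at 3.48 ± 0.56, Plaur at 2.20 ± 0.44, Plg, the plasminogen gene, at -2.06 ± 0.49 and the clearance receptor Lrp1 at 1.85 ± 0.24. Elane is also on the neutrophil list.

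Of 11 cytokines and growth factors known to induce metalloproteinases or Timp1, 8 rose in acute_VCV against control_blank, where 37.3% of all genes were called, and the remaining ones did not pass. Il6 rose by 7.02 ± 1.28, the epidermal growth factor receptor ligand Areg by 3.63 ± 0.69, Il1b by 2.90 ± 0.57 and Tnf by 2.82 ± 0.50. Il6 levels were 0.810 to 3.87 normalised reads in control_blank and 214 to 771 in acute_VCV. Against healthy_VCV 4 higher and 1 lower of 11 were called, against 52.5% of all genes, with Il6 at 6.90 ± 1.19, Areg at 3.28 ± 0.64, Tnf at 1.96 ± 0.47 and Hbegf at 1.92 ± 0.35. Constant ventilation of uninjured lungs gave 3 of 11, below the 57.4% of all genes, each higher: Osm, an inducer of Timp1, at 2.33 ± 0.40, Il1b at 2.25 ± 0.53 and Egf at 1.81 ± 0.29, or 5 without control_blank 074. Il6 in healthy_VCV was 0 to 6.13 normalised reads.

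Of 12 AP-1 and ETS factors, the families whose motifs were searched above, 5 higher and 2 lower of 12 were called in acute_VCV against control_blank, where 37.3% of all genes were called. Fosl1, an AP-1 subunit, rose by 7.26 ± 0.64, Ets2 by 2.04 ± 0.32 and Junb by 1.94 ± 0.36, while Etv4 was at -1.69 ± 0.30. Fosl1 levels were 6.39 to 10.5 normalised reads in control_blank and 1235 to 1515.3 in acute_VCV. The 5 higher became 3 without control_blank 016, and the 2 lower became 1 without control_blank 021 or 074 or acute_VCV 045 or 049. Against healthy_VCV 4 higher and 2 lower of 12 were called, a share near the 52.5% of all genes, with Fosl1 at 5.92 ± 0.60, Etv1 at -2.36 ± 0.26, Atf3 at 1.74 ± 0.71 and Elf3 at 1.37 ± 0.31, and the 2 lower became 1 without acute_VCV 045 or 049 or healthy_VCV 062. Fosl1 levels were 18.8 to 28.4 in healthy_VCV, 54.8 to 1248 in chronic_VCV and 11.7 to 29.8 in chronic_noisy.

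Matrix proteins that metalloproteinases cut were listed as 16 genes, of which 12 were found and tested. With constant ventilation of uninjured lungs 9 of 12 were called, each higher, against 57.4% of all genes, with a list median of 1.36 beside -0.03 over all genes. With variable ventilation 3 of 12 were called, each higher, against 32.1% of all genes, and 0 or 1 without control_blank 016 or 021 or healthy_noisy 029 or 078. With constant ventilation Vcan, the proteoglycan versican, was at 3.73 ± 0.66, the basement membrane linker Nid1 at 2.97 ± 0.60, fibrillin gene Fbn1 at 2.03 ± 0.43 and the collagen gene Col5a1 at 1.84 ± 0.30. In acute_VCV against control_blank 3 of 12 were called, against 37.3% of all genes, each higher: Vcan at 2.95 ± 0.71, fibronectin gene Fn1 at 1.31 ± 0.45 and Col4a1 at 1.16 ± 0.28. Without control_blank 074 the 3 became 5. Acute_VCV against healthy_VCV had 0 higher and 6 lower of 12 called, against 52.5% of all genes, with Fbn1 at -2.0 ± 0.43, Nid1 at -1.86 ± 0.60, Col5a1 at -1.39 ± 0.30 and the collagen gene Col1a1 at -1.36 ± 0.45. Acute_noisy against healthy_noisy went the other way, with 2 higher and 0 lower of 12 called and a list median of 0.64, against 26.7% of all genes. Leaving out 1 library gave 0 to 5 higher in that contrast, 0 without acute_noisy 047, 1 without acute_noisy 050 or healthy_noisy 061, 4 without acute_noisy 046 or healthy_noisy 078 and 5 without acute_noisy 053. The difference of the mode effects, acute minus uninjured, had 7 higher and 0 lower of 12 called, against 39% of all genes, or 4 higher without acute_VCV 040 or healthy_noisy 061 and 3 with acute_noisy of series 15 alone. Col1a1, Col1a2, Col3a1 and Dcn are on both this list and the fibroblast list.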

How the data were processed

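Per the labels, poly(A) RNA was made into strand-specific libraries by the dUTP method and sequenced on an Illumina HiSeq instrument. The submitters' processing notes name DESeq 1.8.3, bedtools 2.11, BWA and CASAVA 1.8.0 and the build rn4 but not what each step did, and per the file headers genes are from Ensembl version 67. The handling of strand and of ambiguous reads in counting is not given in the sources used here. The deposited table holds a signal per gene and library. In each library 100% of values were whole multiples of 1 step within 0.1 read, which fits read counts that the authors divided by a size factor, and dividing by the step recovered whole reads. Of 17002 genes 489 carry no name, and 0 value columns were left unmapped.

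Members were all 6 found of the 10 named. Genes with a mean of at least 10 over the 28 libraries (14908) were fitted as log2(value + 1) with limma 3.58.1 in R 4.3.3, with 1 mean per group, a trend and robust variance. Tests were two-sided, with Benjamini-Hochberg adjustment over all genes. The members, lists and tests were chosen with earlier results of these data known. Comparisons added after seeing the data were acute against chronic injury and number series 14 against 15. EdgeR 4.0.16 quasi-likelihood tests with TMM on recovered reads, fits with acute_noisy of a single series and fits without the 2 shallowest control_chronic libraries were added as well. From each related list at most 4 genes that passed the test are named, largest log2 change first. A few list genes are not reported here and were left out of the list counts. Genes most like a member are the 3 of highest Pearson r among genes with a symbol and a mean of at least 50. List genes missing by symbol were looked up by RefSeq synonym. The fits were tested on simulated reads. Python 3.11.15 was used for tables (pandas 2.3.3, numpy 2.4.6) and figures (matplotlib 3.10.9).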

Additional observations from a re-analysis of the deposited data

Results flagged for a closer look

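Mmp7 in control_chronic was 3.97 normalised reads (2 reads) in a single library and 0 in the other 4, so 1 library made up the whole spread of the group. Its 2 reads are below the 3 reads that a count of 0 allows and cannot be told from 0. Of 21 sets of values by group (the 6 members and MMP14_RAT in the 3 groups of 4 or more libraries), 1 held a library so far from the others. A set with only 1 library above 0 is always flagged, so the usual chance of about 1 in 20 does not apply to it.

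Differences between arms were called by limma for Timp3 and for MMP14_RAT. The effect of mode (variable minus constant) on log2 Timp3 was larger by 0.88 after acute injury than in uninjured lungs (adjusted p = 0.0436), and by 1.04 after chronic injury than in uninjured lungs (adjusted p = 0.0299). For MMP14_RAT it was larger by 1.34 after acute injury (adjusted p = 0.00591). The change of Timp3 with constant ventilation differed between chronically injured and uninjured lungs by -1.04 (adjusted p = 0.0294). Leaving out 1 library ended the acute Timp3 call in 8 of 14 fits, the chronic one in 4 of 13 and the constant ventilation one in 4 of 15. The shares of all genes called were 39%, 29.7% and 23.9%, in the same order. Number series cannot be told apart from mode and injury in these contrasts.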

How the results depend on the processing

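Of 439 recomputed values of called members and MMP14_RAT, 403 stayed past the threshold, 36 did not and 0 changed sign. Every Mmp8 and Mmp9 call against unventilated lungs held under every alternative run, as did each Timp1 call in acute_VCV. No paired analysis was possible because library numbers are never shared between groups. The covariate could be fitted only where all groups hold series 14 or 15. With quantile normalization the median change over genes went to -0.13 from -0.03 in healthy_VCV against control_blank. Reads were few in some libraries for Mmp7 and Mmp12, down to 0 and 4 reads in healthy_noisy. Where a count below moved, the cause was not tested.

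Fits of only the groups compared called 4 members for acute injury under constant ventilation (2 in the full fit), 0 under variable ventilation (1), 1 for mode in uninjured lungs (0), 2 for the mode difference of chronic and uninjured lungs (1), 2 for the difference in constant ventilation (1) and 1 for acute against chronic injury under variable ventilation (2). EdgeR called 2 for acute injury under variable ventilation (1) and 2 for acute against chronic injury under constant ventilation (1), as did a pseudocount of 10 for the latter, also 2. With acute_noisy of series 14 alone, acute injury under variable ventilation gave 3 and the mode difference of acute and uninjured lungs 0 (1). With series 15 alone, mode after acute injury gave 1 (0) and acute against chronic injury under variable ventilation 1 (2). The covariate left 0 for the mode difference of chronic and uninjured lungs (1). Leaving out 1 library gave 0 to 1 members for chronic injury without ventilation, 1 to 4 for acute injury under variable ventilation, 0 to 1 for the mode difference of acute and 0 to 2 of chronic against uninjured lungs, 0 to 1 for the constant ventilation difference, and 1 to 2 for acute against chronic injury in either mode.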
